A study of Mus musculus with 8 samples.

Results

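The solute carriers measured here were 224 array probes for 162 gene symbols that begin with Slc and a digit. They were selected on their detection p-values, which had to be under 0.05 on at least 2 of the 8 arrays, and 8 symbols (Slc2a1, Slc2a3, Slc16a3, Slc7a2, Slc7a11, Slc11a1, Slc11a2 and Slc40a1) with 13 such probes were left out by name. The array carried 456 Slc probes for 307 symbols, of which 219 probes did not reach the detection limit and 137 symbols had no probe that did, and 13868 probes of all 25697 passed the same limit. RNA came from bone marrow-derived macrophages of female mice, 8 weeks old and labelled C57bl/6J, and every group had been kept 7 days in GM-CSF (10 ng/ml), including the controls. Each genotype, wild-type (WT) and iNOS-/-, gave 2 arrays of unstimulated cells and 2 of M1 cells. The M1 cells had received a bacterial cell-wall product, LPS at 200 ng/ml, together with the T-cell cytokine IFN-γ at 10 ng/ml for 6 h. iNOS, encoded by Nos2, is the inducible nitric oxide synthase, and the methods name the deficient mice as B6.129P2-Nos2tm1Lau/J. The deletion is in all cells of the body and not only in macrophages. Whether the 2 arrays of each group represent separate mice or cultures is not given in the labels, so the p-values measure the spread between these arrays.

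Solute carriers are membrane proteins that move amino acids, sugars, metals, ions, vitamins and nucleotides across the plasma membrane or the membranes of lysosomes, Golgi and mitochondria, by facilitated diffusion or by coupling to a second ion. Macrophages use them to feed glycolysis and arginine use after activation, to hold back metals from microbes and to empty lysosomes after digestion of engulfed material. Families are numbered by sequence likeness, so that one family can hold carriers of unlike substrates. The probes are therefore described by substrate class.

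All values are log2 scaled intensities, scaled on rank-invariant probes so that arrays are comparable, with values under 1 set to 1, so that a reading of 0.00 stands at that floor. Levels of different probes are not compared with each other. Where no array of the dimmer group detected a probe, only a lower bound of the fold is given. Raising the floor from 1 to 16 ended the calls named below for Slc4a8, Slc17a8, Slc39a10, Slc46a1, Slc13a2, Slc12a7, Slc35e4, Slc1a4 and Slc45a3, and that of Slc1a2 in WT. Gene by gene, this floor was tried only for 50 results, the largest called changes of each comparison. Other calls given below, also those of dim probes such as Slc1a5, Slc43a2 and Slc2a8, were not checked with it. A probe counts as called where limma's adjusted p over all 13868 probes was under 0.05. The 8 arrays had mean intensities of 155 to 224 and detected 46% to 49.3% of all probes, among them 180 to 203 of the solute carrier probes, and the lowest detected log2 value was 2.31 to 2.92, highest on the iNOS-/- M1 arrays. The Nos2 probe did not separate the genotypes after stimulation, at 7.47 and 7.05 on the WT M1 arrays and 7.49 and 7.67 on the iNOS-/- M1 arrays. It starts at base 3546 of the transcript, and whether that lies outside the deleted piece is not given in the sources used here, so every genotype direction below rests on the labels. The 9 macrophage markers were detected on all 8 arrays, while the summed intensity of dendritic cell markers was 407 to 446 in WT unstimulated, 6305 to 6418 in WT M1, 4409 to 4551 in iNOS-/- unstimulated and 19461 to 20527 in iNOS-/- M1. Dividing-cell markers summed to 867 to 908, 2799 to 2975, 3189 to 3192 and 1041 to 1045 in the same order, and granulocyte markers to 1134 to 1152, 1406 to 1516, 1685 to 1751 and 3869 to 3994. The 3 T cell markers were detected on no array. The sums lean on bright genes, such as Il4i1 at 13.69 and 13.82 in iNOS-/- M1. Cd209a read 4.79 and 5.16 in WT M1 and was at the floor in iNOS-/- M1. Between the M1 groups, 4 of 8 tested dendritic cell markers were called higher in iNOS-/- and 1 lower. For macrophage markers these calls were 2 and 5 of 9, and for granulocyte markers 3 and 0 of 7. All probes had 22.9% and 25.3%. The sums move with the groups and their part in the carrier results was not tested. In bulk RNA, fewer cells of a type and less RNA per cell cannot be told apart.

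Of the 224 probes, 145 were detected on all 8 arrays and 15 on exactly 2, of which 4 were seen on the 2 arrays of 1 group alone. The 15 probes just inside the limit reached a highest log2 value of 2.90 to 4.76 (median 3.38), while the 35 probes just outside it, detected on 1 array, reached 2.36 to 3.70 (median 2.87). Probes never detected in a group numbered 20 and 14 for WT before and after stimulation, and 16 and 30 for iNOS-/-. Replicate arrays differed by a median of 0.17 to 0.22 on the log2 scale over the 224 probes, and by 0.11 to 0.15 over the 145 detected everywhere.

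The first question was how M1 stimulation changed the carriers in WT cells. In WT M1 against WT unstimulated, 57 of 224 probes were called (25.4%), 29 higher and 28 lower, where 35.1% of all probes were called, 20.8% higher and 14.3% lower. The median change of the carriers was -0.002, against 0.09 over all probes. Leaving out any 1 of the 4 WT arrays gave 36 and 32 called probes without WT unstimulated replicate 1 and replicate 2, and 30 and 34 without WT M1 replicate 1 and replicate 2. The share of higher calls among the called carriers was 50.9%, and 29.2% with neqc and 35.9% with quantile normalization, so the balance of directions in this comparison rests on the scaling. These scalings moved the median of all probes from 0.09 to -0.04 and -0.06 here, and from 0.004 to -0.06 and -0.13 in the iNOS-/- response. With neqc, which adds an offset of 16 to the intensities, many log2 differences given below were over 1.5 times smaller, such as those of Slc27a3, Slc6a9, Slc19a1 and Slc45a4 and those of probes undetected in a group.

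In iNOS-/- M1 against iNOS-/- unstimulated, 111 probes were called (49.6%), 43 higher and 68 lower, beside 50.3%, 25.2% and 25.1% of all probes. The median change of the carriers was -0.20, against 0.004 over all probes. The direct comparison of iNOS-/- M1 with WT M1 called 114 probes (50.9%), 41 higher and 73 lower, beside 48.2%, 22.9% and 25.3% of all probes. Lower calls made up 32.6% of the carriers and higher calls 18.3%, and the carriers' median difference was -0.34 against -0.03 over all probes. Among the 145 carriers detected on all 8 arrays, 31 were higher (21.4%) and 55 lower (37.9%), beside 28.1% and 28.7% of all probes so detected.

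Before stimulation, iNOS-/- differed from WT in 63 probes (28.1%), 24 higher and 39 lower, beside 32.2%, 16.7% and 15.4% of all probes. The test of the difference between the responses of the genotypes called 87 probes (38.8%), 36 higher and 51 lower in the iNOS-/- response, beside 42.0%, 19.4% and 22.6% of all probes. Leaving out any 1 of the 4 unstimulated arrays lowered the 63 calls between the unstimulated groups to 37 without either WT array, 38 without iNOS-/- replicate 1 and 40 without iNOS-/- replicate 2.

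**Figure D1:**
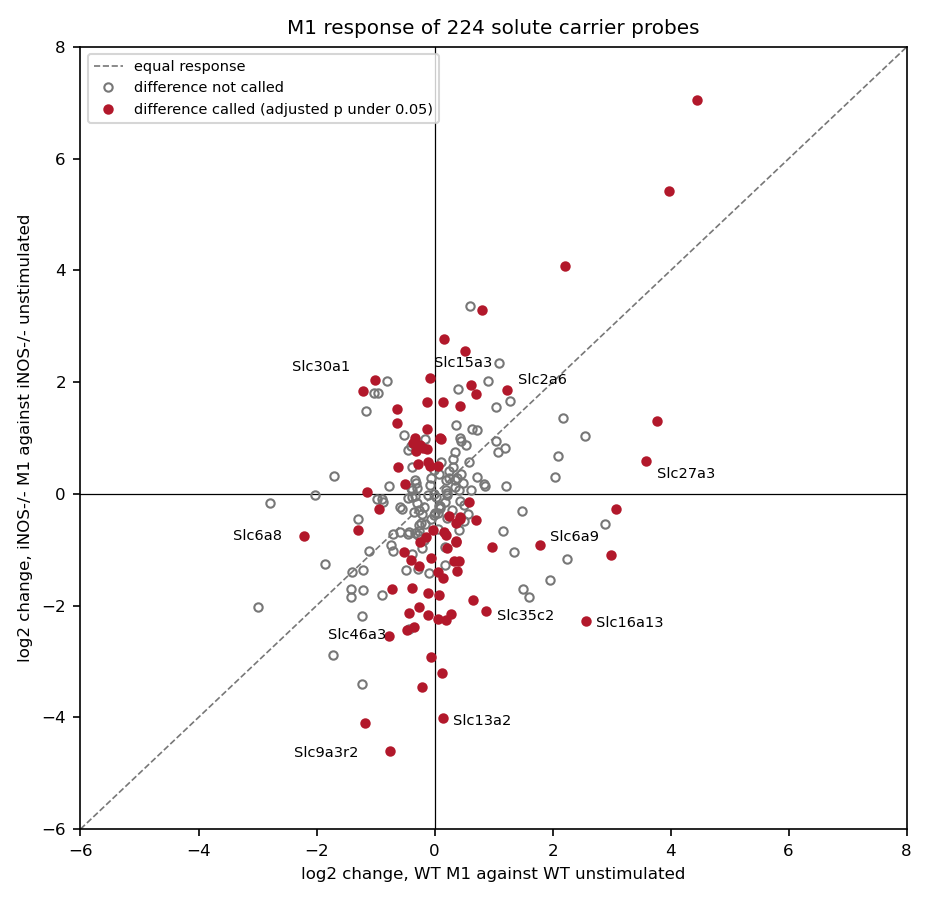
Change with M1 stimulation of the 224 solute carrier probes, with the log2 change in WT on the horizontal axis and in iNOS-/- on the vertical axis, no array being shared between the axes. Filled points are the 87 probes whose difference in response was called, and 14 probes were called in opposite directions in the genotypes, such as Slc30a1 (upper left) and Slc35c2 (lower right).

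The lysosomal peptide carriers Slc15a3 and Slc15a4 changed in opposite directions in iNOS-/- cells. Slc15a3, which moves histidine, short peptides and muramyl dipeptide out of lysosomes, read 12.03 and 11.94 in WT unstimulated, 11.87 and 11.95 in WT M1, 11.18 and 11.22 in iNOS-/- unstimulated and 13.24 and 13.31 in iNOS-/- M1. The iNOS-/- M1 arrays stood above all others and the iNOS-/- unstimulated arrays below all others, with no overlap. Slc15a3 rose 4.22-fold with stimulation in iNOS-/- (log2 2.08 ± 0.09 SE, adjusted p = 5.71e-05) while the WT difference was -0.08 ± 0.09 (SE), adjusted p = 0.537, and the responses differed by 2.15 ± 0.12 (SE), adjusted p = 0.000371. The iNOS-/- rise of Slc15a3 was 1.35 with neqc and 1.36 with quantile normalization, both called. Its paralog Slc15a4, a lysosomal histidine and peptide carrier known for its need in endosomal Toll-like receptor signalling, went the other way. On its brighter probe Slc15a4 read 8.66 and 8.52 in WT unstimulated, 8.27 and 8.12 in WT M1, 7.82 and 7.85 in iNOS-/- unstimulated and 6.76 and 6.56 in iNOS-/- M1, and fell in iNOS-/- by 1.18 (SE 0.12, adjusted p = 0.000802). The WT fall of Slc15a4 was 0.40 (SE 0.12, adjusted p = 0.0488), and the iNOS-/- M1 arrays were 2.9-fold below WT M1. On its second probe Slc15a4 fell by 1.11 in WT and 1.02 in iNOS-/-, both called, and the M1 difference of -0.68 was not called. The larger fall in iNOS-/- than in WT was thus seen on the brighter probe only. Slc15a2, a peptide carrier of the plasma membrane, read 3.77 and 3.98 in WT M1 and 5.48 and 5.54 in iNOS-/- M1 (log2 1.63 ± 0.23 SE, adjusted p = 0.00304), and it rose in iNOS-/- by 1.26 (adjusted p = 0.0067).

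The brightest sugar carrier probe rose in both genotypes. Of the 12 sugar probes, 2 were called higher and 3 lower in the iNOS-/- response (16.7% and 25%, beside 25.2% and 25.1% of all probes). Slc2a6, a hexose carrier of the lysosomal membrane also called GLUT6, read 11.35 and 11.37 in WT unstimulated, 12.51 and 12.67 in WT M1, 11.84 and 11.89 in iNOS-/- unstimulated and 13.70 and 13.75 in iNOS-/- M1. Its groups rose from WT unstimulated through iNOS-/- unstimulated and WT M1 to iNOS-/- M1, and no neighbouring groups overlapped. Slc2a6 rose 2.35-fold in WT (1.23 ± 0.09 SE, adjusted p = 0.000665) and 3.63-fold in iNOS-/- (1.86 ± 0.09 SE, adjusted p = 9.17e-05), and the iNOS-/- M1 arrays were 2.2-fold above WT M1 (1.14 ± 0.09 SE, adjusted p = 0.000566). The M1 difference was 0.63 with both neqc and quantile normalization, and the difference between the responses went from 0.63 (adjusted p = 0.0138) to 0.01 with each (adjusted p = 0.972 and 0.977). Of the 12 sugar probes, 3 were called between the M1 groups (25%, beside 48.2% of all probes), and the other 2 were lower in iNOS-/-. Slc45a4, of the proton-coupled sugar family, read 6.42 and 6.41 in WT M1 and 3.88 and 4.36 in iNOS-/- M1 and differed by -2.29 ± 0.17 (SE), adjusted p = 0.000442. Slc2a8, or GLUT8, an intracellular glucose carrier, read 5.48 and 5.22 in WT M1 and 3.89 and 3.19 in iNOS-/- M1 and differed by -1.81 ± 0.25 (SE), adjusted p = 0.00317. Slc45a3 was near the detection limit, at 3.03 and 2.51 in WT unstimulated, 2.79 and 3.06 in WT M1, the floor on both iNOS-/- unstimulated arrays and 3.15 and 2.40 in iNOS-/- M1. Undetected in unstimulated iNOS-/- cells, Slc45a3 was at least 1.37-fold lower there than in WT (adjusted p = 0.00237).

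**Figure D2:**
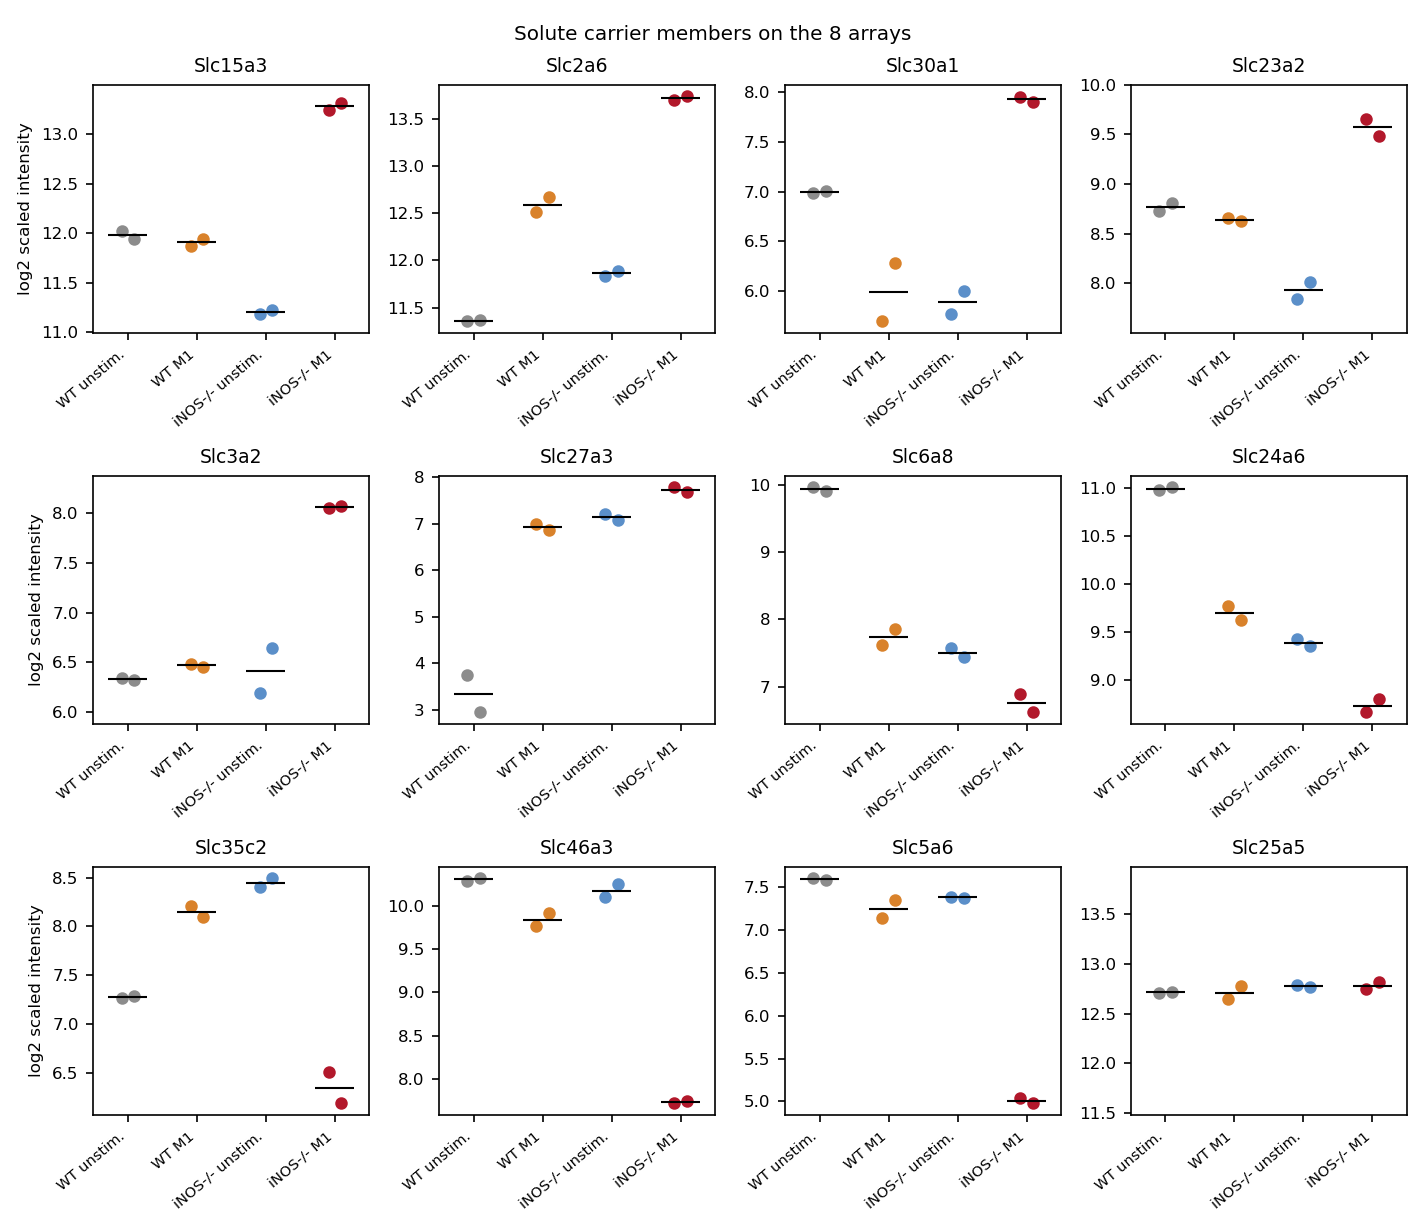
Log2 scaled intensity of 12 solute carriers on each array (points) with the group mean (line), each panel with its own axis. The iNOS-/- M1 arrays were highest for Slc15a3, Slc2a6, Slc30a1, Slc23a2, Slc3a2 and Slc27a3 and lowest for Slc6a8, Slc24a6, Slc35c2, Slc46a3 and Slc5a6, while Slc25a5 read between 12.64 and 12.82 on this scale but fell in iNOS-/- with neqc and with quantile normalization.

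Amino acid carriers made up 30 probes for 20 symbols, with 22 called between the M1 groups, 10 higher and 12 lower in iNOS-/- (33.3% and 40%, beside 22.9% and 25.3% of all probes). Repeat probes of a gene are counted singly here, among them both probes of Slc1a5, Slc38a9 and Slc43a2 and all 4 of Slc1a2. The Slc1a2 probe starting at 1868 passed the detection limit only through iNOS-/- M1, and that at 471 was undetected in both M1 groups. Slc3a2, the CD98 heavy chain that carries the light chains to the surface, read 6.34 and 6.32 in WT unstimulated, 6.49 and 6.45 in WT M1, 6.19 and 6.64 in iNOS-/- unstimulated and 8.05 and 8.07 in iNOS-/- M1. Only the iNOS-/- M1 arrays stood out, and Slc3a2 rose 3.13-fold in iNOS-/- (1.65 ± 0.16 SE, adjusted p = 0.000696), with a WT difference of 0.14 ± 0.16 (SE), adjusted p = 0.54. Slc7a8, the light chain LAT2 for neutral amino acids, rose in both genotypes, by 1.27 in WT and 1.66 in iNOS-/- (adjusted p = 0.00259 and 0.000515), and its second probe also rose in both. Slc16a10, a carrier of aromatic amino acids, rose by 0.70 in WT and 1.80 in iNOS-/- (adjusted p = 0.00705 and 0.000174).

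Several amino acid carriers were lower in iNOS-/- M1 than in WT M1. Slc38a9, the lysosomal arginine sensor upstream of mTORC1, read 5.62 and 5.85 in WT M1 and 3.32 and 4.14 in iNOS-/- M1, a difference of -2.0 ± 0.30 (SE), adjusted p = 0.00401, and its second probe was also called lower. Slc36a1, a proton-coupled exporter of small amino acids from lysosomes, read 6.30 and 6.47 in WT M1 and 5.38 and 5.47 in iNOS-/- M1 (difference -0.96 ± 0.14 SE, adjusted p = 0.00368). Slc43a2, the neutral amino acid carrier LAT4, was lower by both its probes, with 4.69 and 5.02 in WT M1 and 3.22 and 3.57 in iNOS-/- M1 on the brighter one (difference -1.46 ± 0.17 SE, adjusted p = 0.00168). Slc7a7, the light chain y+LAT1 for dibasic amino acids, rose by 0.70 in WT and fell by 0.46 in iNOS-/- (adjusted p = 0.00934 and 0.0237). Both probes of the glutamine carrier Slc1a5 (ASCT2) were at or under 4.66 on every array and were called lower in iNOS-/- M1, where both arrays were at the floor on 1 of the 2 probes.

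Slc38a2, the brightest amino acid probe and a stress-inducible carrier of small neutral amino acids, read 9.36 and 9.48 in WT unstimulated, 8.51 and 8.46 in WT M1, 8.98 and 9.09 in iNOS-/- unstimulated and 8.77 and 8.78 in iNOS-/- M1. It fell in WT by 0.94 (SE 0.09, adjusted p = 0.00159). Its second bright probe gave the unstimulated genotype difference the opposite sign, 0.40 ± 0.08 (SE), adjusted p = 0.0172 against -0.39 ± 0.09 (SE), adjusted p = 0.0278, of which the latter was not called with quantile normalization (adjusted p = 0.0715). Slc32a1, the vesicular carrier of GABA and glycine, read 5.75 and 5.34 in WT unstimulated, 4.98 and 4.83 in WT M1, 4.67 and 4.39 in iNOS-/- unstimulated and 6.05 and 6.06 in iNOS-/- M1, falling in WT and rising in iNOS-/- (interaction 2.17 ± 0.25 SE, adjusted p = 0.00232). Slc1a4, the alanine and serine carrier ASCT1, was at the floor on both WT unstimulated arrays, at 3.39 and 2.76 in WT M1, 4.23 and 4.07 in iNOS-/- unstimulated and 3.87 on both iNOS-/- M1 arrays. Slc1a4 was at least 3.15-fold higher in iNOS-/- than in WT before stimulation (adjusted p = 0.000233). Slc7a4, a family member without a settled substrate, read 5.81 and 5.61 in WT unstimulated, 4.57 and 4.41 in WT M1, 4.65 and 4.76 in iNOS-/- unstimulated and 2.59 and 0.00, undetected, in iNOS-/- M1. The iNOS-/- M1 arrays were at least 3.01-fold below WT M1 for Slc7a4 (adjusted p = 0.0238, and 0.0826 to 0.0923 without either WT M1 array), and at least 3.49-fold below unstimulated iNOS-/- (adjusted p = 0.0179, and 0.0705 to 0.0758 without either iNOS-/- unstimulated array).

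Slc1a2, the glutamate carrier best known from astrocytes, had 4 probes that did not move together, and the start of each is shown because the calls differ between the probes. The first 30 of 50 probe bases, as deposited, are given in the order of the deposited start positions. Only the probes at 471 and 2090 are placed on the same transcript record, so the order does not rank all 4 along a common transcript.
Slc1a2 probe starting at 471: ttacccaggaggggggtgcgagggcggaga
Slc1a2 probe starting at 1868: gaggcatagaggagctgtgtacacccgtga
Slc1a2 probe starting at 1962: ggtggttgtcagaactttaatggccttcag
Slc1a2 probe starting at 2090: ccaagtctgagctggacaccattgactccc
The probe starting at 2090 read 0.58 and 0.00 in WT unstimulated, 4.07 and 4.45 in WT M1, 2.58 and 1.96 in iNOS-/- unstimulated and 7.69 and 7.69 in iNOS-/- M1. It was undetected in WT unstimulated cells and at least 3.41-fold higher in WT M1 (adjusted p = 0.000667). It was 10.8-fold higher in iNOS-/- M1 than in WT M1 (3.43 ± 0.29 SE, adjusted p = 0.000680). The probe at 1962 read 8.45 and 8.41 in iNOS-/- M1 and 4.55 and 4.34 in WT M1. The probe at 1868 was detected on the 2 iNOS-/- M1 arrays alone, at 4.76 and 4.75, and passed the detection limit only through them. The probe at 471, which shares its transcript accession with the probe at 2090, read 2.40 and 2.84 in WT unstimulated, 1.72 and 2.64 in WT M1, 1.45 and 3.38 in iNOS-/- unstimulated and 0.00 and 0.00 in iNOS-/- M1. It was detected on 1 WT unstimulated and 1 iNOS-/- unstimulated array and on no M1 array, so the lower call in iNOS-/- M1 against WT M1 (adjusted p = 0.0452) lies under the detection limit in both groups, and it was lost with neqc (adjusted p = 0.343). The letters differ between the probes, and which transcripts these cells make was not tested.

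**Figure D3:**
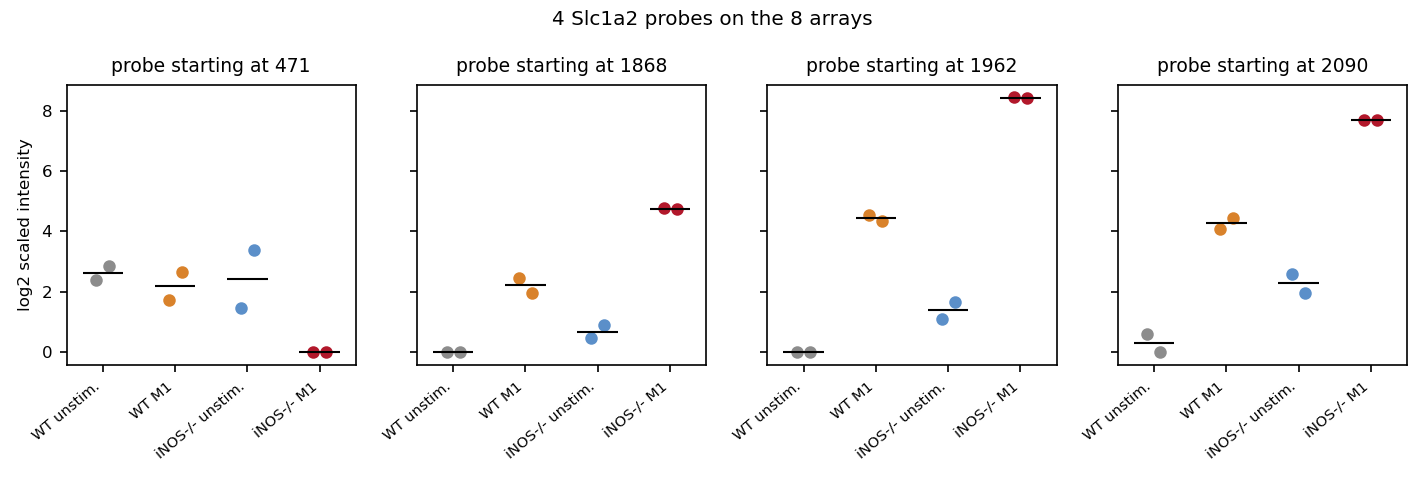
Log2 scaled intensity of the 4 Slc1a2 probes on each array (points) with group means (lines), on a shared axis and ordered by deposited probe start, not all on the same transcript record. The iNOS-/- M1 arrays were highest on 3 probes and at the floor on the probe starting at 471.

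Carriers of taurine, creatine and transmitters gave 7 probes. Slc6a6, the taurine carrier, read 13.42 and 13.46 in WT unstimulated, 12.79 and 12.85 in WT M1, 12.46 and 12.57 in iNOS-/- unstimulated and 12.94 and 13.04 in iNOS-/- M1, fell in WT by 0.62 (adjusted p = 0.00554) and was 0.48 higher in iNOS-/- M1 than in iNOS-/- unstimulated (adjusted p = 0.00757), a difference between responses of 1.10 ± 0.13 (SE), adjusted p = 0.00226. The sign of the iNOS-/- change of Slc6a6 turned with neqc and with quantile normalization, to -0.21 and -0.21, neither called, and the difference between responses fell to 0.45 and 0.45. Slc6a8, the creatine carrier, read 9.98 and 9.92 in WT unstimulated, 7.62 and 7.86 in WT M1, 7.57 and 7.44 in iNOS-/- unstimulated and 6.90 and 6.62 in iNOS-/- M1. WT unstimulated arrays were the highest by more than 2 log2 units and the other 3 groups followed below 7.9, so Slc6a8 was 4.62-fold lower in WT M1 (-2.21 ± 0.14 SE, adjusted p = 0.000398) and 5.43-fold lower in iNOS-/- before stimulation (-2.44 ± 0.14 SE, adjusted p = 0.000350).

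Slc6a9, the glycine carrier GlyT1, read 3.85 and 3.67 in WT unstimulated, 5.55 and 5.54 in WT M1, 6.04 and 6.15 in iNOS-/- unstimulated and 5.32 and 5.05 in iNOS-/- M1. It rose in WT by 1.79 and fell in iNOS-/- by 0.91 (adjusted p = 0.000575 and 0.00271), having started 5.04-fold higher in iNOS-/-. Slc6a13, the GABA carrier GAT2, also rose in WT (0.42) and fell in iNOS-/- (1.19), and the WT rise was not called with quantile normalization (adjusted p = 0.0721). Slc6a12, which carries betaine and GABA, fell in WT by 0.45 (adjusted p = 0.0285), and the 4 iNOS-/- arrays lay between 10.30 and 10.50. Slc6a4, the serotonin carrier, was 2.77-fold higher in iNOS-/- than in WT before stimulation (1.47 ± 0.18 SE, adjusted p = 0.00348). Slc6a19, a carrier of neutral amino acids, was detected on both iNOS-/- M1 arrays, at 2.94 and 3.37, and on 1 WT unstimulated array, beside 0.61 and 0.00 in WT M1, 0.00 and 2.51 in WT unstimulated and 1.84 and 0.84 in iNOS-/- unstimulated. It met the detection limit through the group in which it was high, so no test is given for it.

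Metal carriers went in both directions after stimulation of iNOS-/- cells, with 7 of 29 probes called higher and 8 lower (24.1% and 27.6%). All probes had 25.2% and 25.1%, so this split is not particular to the metal carriers. Slc30a1, the zinc exporter of the plasma membrane whose gene is known to answer to zinc through metal response elements, read 6.98 and 7.01 in WT unstimulated, 5.70 and 6.28 in WT M1, 5.77 and 6.0 in iNOS-/- unstimulated and 7.96 and 7.90 in iNOS-/- M1. It fell in WT by 1.01 (adjusted p = 0.0164) and rose 4.12-fold in iNOS-/- (2.04 ± 0.20 SE, adjusted p = 0.000834), and the responses differed by 3.05 ± 0.29 (SE), adjusted p = 0.00134. No group pair overlapped except WT M1 with iNOS-/- unstimulated. The 250 bases before the Slc30a1 start are shown because of that known control, with capitals marking 2 matches on the reverse strand among the motifs searched on both strands. They are TGACNNNGC, the antioxidant response core, at -82 to -74 and TGCACNC, a form of the metal response core, at -43 to -37 from the start.
Slc30a1, GRCm38.p6, plus strand, chr1:191906531-191906780: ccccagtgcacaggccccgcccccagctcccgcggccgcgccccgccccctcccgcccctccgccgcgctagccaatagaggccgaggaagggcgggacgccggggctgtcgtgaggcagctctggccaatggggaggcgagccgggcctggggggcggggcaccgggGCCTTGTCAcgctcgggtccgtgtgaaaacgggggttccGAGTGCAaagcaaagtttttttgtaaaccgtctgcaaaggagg
The other form of the metal response core, TGCGCNC, matched at 30 to 36 after the start, outside the bases shown. Both forms were chosen for searching after the values were seen. In RefSeq windows from 250 bases before to 50 after the start, TGCACNC stood in 12.6% of all 32851 windows, TGCGCNC in 15.4% and TGACNNNGC in 12.4%, and the matches are given as a description.

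The other zinc exporters did not move as 1 group. Slc30a4, an exporter into vesicles, rose 4.04-fold in iNOS-/- (2.01 ± 0.30 SE, adjusted p = 0.00335), with iNOS-/- M1 at 6.19 and 6.15 and no other array above 4.85. Slc30a6, a zinc exporter of the Golgi, was 1.94-fold higher in iNOS-/- M1 than in WT M1 (0.95 ± 0.09 SE, adjusted p = 0.000873), with all 6 other arrays between 7.08 and 7.26. Slc30a5, which works as a complex with Slc30a6, was lower there by both its probes, at 8.08 and 8.13 in WT M1 and 7.50 and 7.40 in iNOS-/- M1 on the brighter one (-0.65 ± 0.10 SE, adjusted p = 0.00433). Slc30a7, the brightest metal probe and also a Golgi zinc exporter, read 8.96 and 8.88 in WT unstimulated, 9.10 and 9.42 in WT M1, 9.05 and 9.19 in iNOS-/- unstimulated and 9.48 and 9.26 in iNOS-/- M1 and was not called in any comparison on that probe, though with neqc its WT difference of 0.36 was (adjusted p = 0.0331).

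Among zinc importers, Slc39a13 read 6.68 and 6.83 in WT M1 and 5.14 and 5.05 in iNOS-/- M1, 3.15-fold lower in iNOS-/- (-1.66 ± 0.10 SE, adjusted p = 0.000301), and its second probe was called lower as well. Slc39a11 read 9.32 and 9.61 in WT M1 and 8.07 and 8.21 in iNOS-/- M1 and differed by -1.32 ± 0.12 (SE), adjusted p = 0.000877. Slc39a10, an importer of the plasma membrane, was near the limit at 4.06 and 4.35 in WT unstimulated, 2.23 and 2.73 in WT M1, 3.33 and 3.56 in iNOS-/- unstimulated and 0.00 and 1.11 in iNOS-/- M1, and was detected in the unstimulated groups only. It was at least 2.69-fold lower in WT M1 than in WT unstimulated (adjusted p = 0.0243, and 0.058 to 0.107 without any 1 of the 4 WT arrays). The copper importer Slc31a1 (CTR1) rose in iNOS-/- by 0.82 (adjusted p = 0.000725) from a start 0.63 lower on the log2 scale than WT, and Slc31a2 rose by 0.90 (adjusted p = 0.012). Of the magnesium carriers, Slc41a2 rose in iNOS-/- by 0.76 while Slc41a3 fell by 1.21 (adjusted p = 0.00171 and 0.00146). Over all 29 metal probes, 14 were called between the M1 groups (48.3%, beside 48.2% of all probes), 5 higher and 9 lower.

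**Figure D4:**
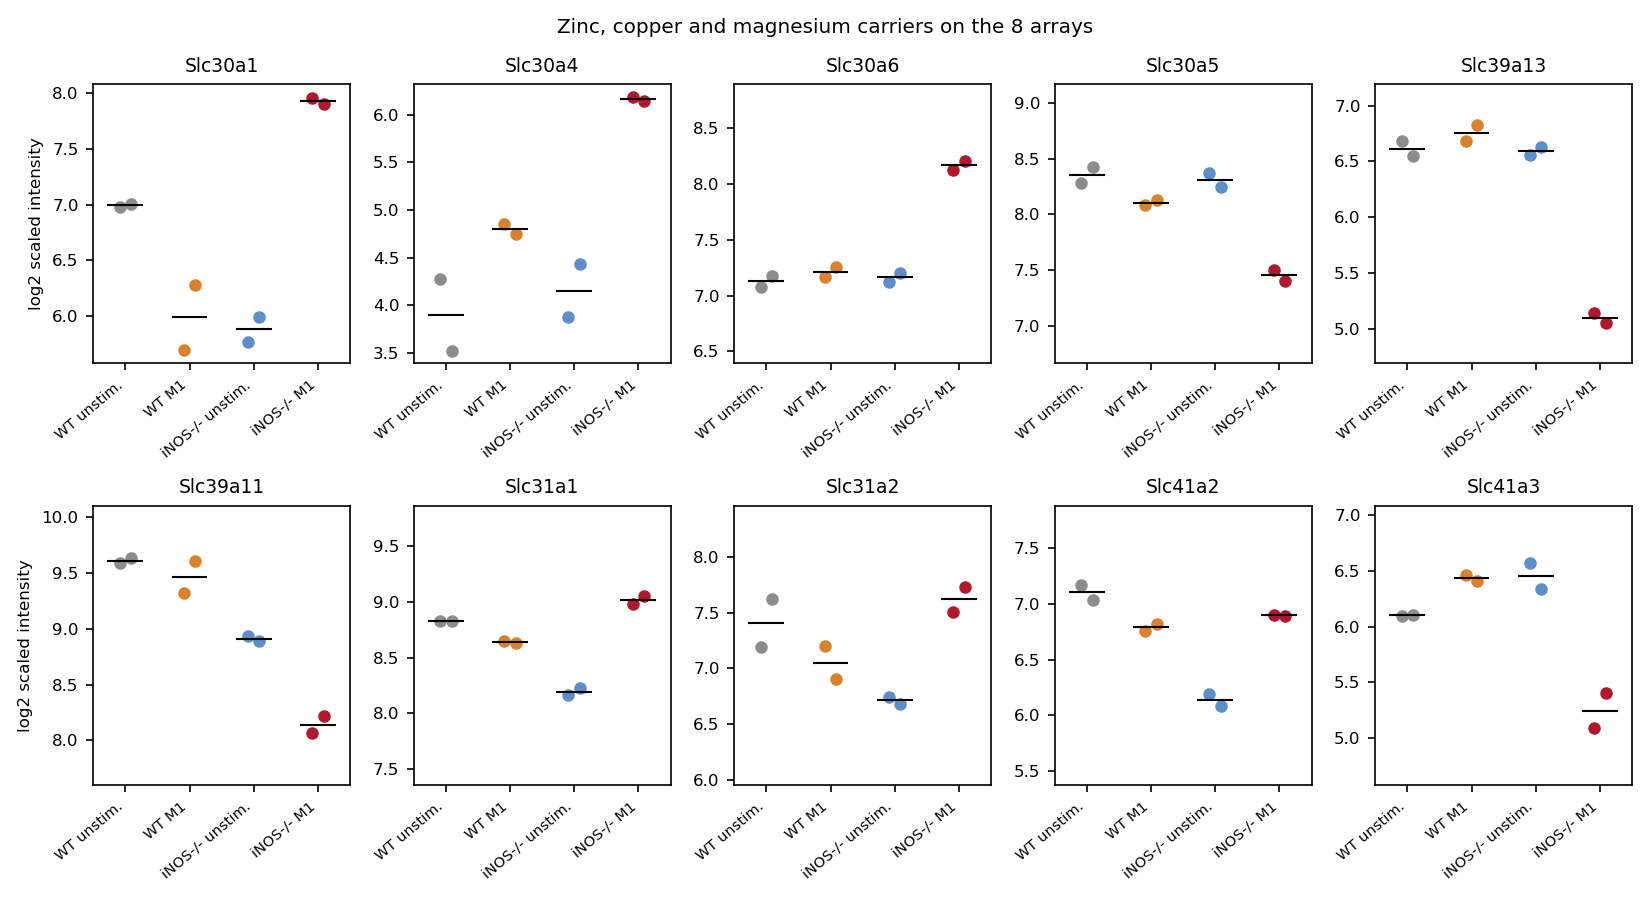
Log2 scaled intensity of 10 zinc, copper and magnesium carriers (brightest probe each) on every array (points) with group means (lines), each panel with its own axis. In iNOS-/- M1, Slc30a1, Slc30a4 and Slc30a6 lie above all other arrays, and Slc30a5, Slc39a13, Slc39a11 and Slc41a3 below them.

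Of 31 probes for ion and pH carriers, 10 were called between the M1 groups (32.3%, beside 48.2% of all probes), 5 in each direction. Slc24a6, now named Slc8b1, the sodium-calcium exchanger of the mitochondrial inner membrane, read 10.97 and 11.01 in WT unstimulated, 9.77 and 9.62 in WT M1, 9.42 and 9.35 in iNOS-/- unstimulated and 8.66 and 8.80 in iNOS-/- M1. Both WT groups lay above both iNOS-/- groups, and within each genotype the M1 arrays were the lower, without overlap. Slc24a6 was 2.46-fold lower in WT M1 than in WT unstimulated (-1.30 ± 0.10 SE, adjusted p = 0.000727) and 3.04-fold lower in unstimulated iNOS-/- than WT (-1.61 ± 0.10 SE, adjusted p = 0.000430). Slc9a7, a sodium-proton exchanger of the trans-Golgi, rose in both genotypes, by 1.20 and 0.82 (adjusted p = 0.00421 and 0.00877). Slc8a1, a plasma membrane sodium-calcium exchanger, was 1.63-fold higher in iNOS-/- M1 than WT M1 (0.70 ± 0.17 SE, adjusted p = 0.0222). The brighter probe of the chloride cotransporter Slc12a2 was called in no comparison here and, between the unstimulated groups, with neqc and quantile normalization (adjusted p = 0.0415 and 0.0416). Its other probe was called in the WT response (0.58), between the M1 groups (-0.65) and for the difference between responses (-0.72). The last call was lost with neqc and quantile normalization (adjusted p = 0.263 and 0.235).

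Several dim ion carriers had a group with no detected array. Slc4a8, a sodium-driven bicarbonate carrier, read 0.00 and 1.04 in WT unstimulated, 4.74 and 3.85 in WT M1, 3.89 and 4.04 in iNOS-/- unstimulated and 5.14 and 5.41 in iNOS-/- M1. It was undetected in WT unstimulated, at least 3.49-fold higher in WT M1 and at least 2.78-fold higher in iNOS-/- unstimulated (adjusted p = 0.00277 and 0.00381). Slc12a7, the potassium-chloride cotransporter KCC4, read 3.76 and 3.23 in WT unstimulated, 3.51 and 3.74 in WT M1, 4.16 and 3.59 in iNOS-/- unstimulated and 1.34 and 0.00 in iNOS-/- M1, where it was undetected and at least 1.96-fold lower than before stimulation (adjusted p = 0.0037). Slc24a5, an exchanger known from melanosomes, was detected in iNOS-/- M1 alone, at 2.98 and 3.62, beside 1.55 and 0.06 in WT M1 and the floor on all 4 unstimulated arrays. Slc24a5 passed the detection limit only through that group, so no test is given for it.

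The 40 probes of mitochondrial carriers, which link the metabolite pools of matrix and cytosol, included 20 called between the M1 groups (50%, beside 48.2% of all probes), 8 higher and 12 lower in iNOS-/-. Slc25a5, the adenine nucleotide translocase that is the brightest of them, read 12.71 and 12.72 in WT unstimulated, 12.64 and 12.78 in WT M1, 12.79 and 12.77 in iNOS-/- unstimulated and 12.75 and 12.82 in iNOS-/- M1 and was called in no comparison. This rested on the scaling: its iNOS-/- response was -0.64 with neqc and -0.64 with quantile normalization, its M1 difference -0.49 with both and its difference between responses -0.55 and -0.55, all called. Slc25a20, which brings acylcarnitines in for fatty acid oxidation, rose in iNOS-/- by 0.98 on its brighter probe and 1.58 on the other (adjusted p = 0.000612 and 0.000762). On the brighter Slc25a20 probe the iNOS-/- M1 arrays read 9.66 and 9.73 and no other array was above 8.76. Slc25a25, a calcium-regulated ATP-magnesium/phosphate carrier, rose by 0.61 in WT and 1.94 in iNOS-/- (adjusted p = 0.0103 and 0.000128). Slc25a37, the iron importer mitoferrin 1, rose by 0.64 and 1.17 (adjusted p = 0.0212 and 0.00164).

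Lower in iNOS-/- M1 than in WT M1 were Slc25a10, the dicarboxylate carrier (-1.29 ± 0.12 SE, adjusted p = 0.000745), and the brighter probe of Slc25a15, the ornithine carrier (-1.90 ± 0.24 SE, adjusted p = 0.00239). Slc25a10 read 7.19 and 7.36 in WT M1 and 6.01 and 5.94 in iNOS-/- M1 and Slc25a15 5.29 and 5.38 in WT M1 and 3.80 and 3.07 in iNOS-/- M1, without overlap. Slc25a38, which supplies glycine for haem synthesis, was higher before stimulation in iNOS-/- on all 3 of its probes, by 0.76, 1.22 and 1.11 on the log2 scale, and fell with stimulation on all 3 in iNOS-/-. The citrate carrier Slc25a1 was called between the M1 groups on neither of its probes. Of the 3 Slc25a11 probes, for the oxoglutarate-malate carrier, 1 was called lower in iNOS-/- M1 and the others were not.

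Vitamin, haem, choline and acetyl-CoA carriers were 13 probes for 10 symbols, of which 2 were called higher and 8 lower in iNOS-/- M1 than in WT M1 (15.4% and 61.5%, beside 22.9% and 25.3% of all probes). Slc46a3, a lysosomal carrier of the folate and haem family, read 10.29 and 10.33 in WT unstimulated, 9.77 and 9.92 in WT M1, 10.10 and 10.25 in iNOS-/- unstimulated and 7.72 and 7.75 in iNOS-/- M1. The iNOS-/- M1 arrays were set apart from the other 6, 4.32-fold below WT M1 (-2.11 ± 0.10 SE, adjusted p = 0.000182). Slc5a6, the carrier of biotin and pantothenate, read 7.61 and 7.59 in WT unstimulated, 7.15 and 7.36 in WT M1, 7.39 and 7.38 in iNOS-/- unstimulated and 5.04 and 4.98 in iNOS-/- M1, and was 4.74-fold lower (-2.24 ± 0.10 SE, adjusted p = 0.000163). Slc19a1, the reduced folate carrier that also admits cyclic GMP-AMP, read 5.85 and 6.15 in WT M1 and 2.94 and 4.38 in iNOS-/- M1 (-2.34 ± 0.47 SE, adjusted p = 0.0114). Slc19a2, a thiamine carrier, read 6.26 and 6.48 in WT M1 and 5.15 and 4.70 in iNOS-/- M1 (-1.44 ± 0.22 SE, adjusted p = 0.00402).

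Slc46a1, the proton-coupled folate carrier, was undetected in iNOS-/- M1, with both arrays at the floor beside 4.47 and 4.69 in WT unstimulated, 3.25 and 3.55 in WT M1 and 3.96 and 4.24 in iNOS-/- unstimulated. This put Slc46a1 at least 2.3-fold lower than in unstimulated iNOS-/- cells (adjusted p = 5.20e-05) and at least 1.41-fold lower than in WT M1 (adjusted p = 0.000190). Slc44a1, a choline carrier, read 6.05 and 5.60 in WT unstimulated, 4.42 and 4.64 in WT M1, 3.71 and 4.04 in iNOS-/- unstimulated and 3.75 and 3.11 in iNOS-/- M1, 3.86-fold lower in iNOS-/- before stimulation (-1.95 ± 0.28 SE, adjusted p = 0.00586). On this brighter probe Slc44a1 fell in WT by 1.30 (SE 0.28, adjusted p = 0.0199), a call lost without WT unstimulated replicate 1 or either WT M1 array. The second Slc44a1 probe was also called lower in iNOS-/- before stimulation, by 2.1. It rose with stimulation in iNOS-/- by 1.85 and was 0.96 higher in iNOS-/- M1 than in WT M1. The brighter probe changed by -0.44 and -1.09 in these comparisons, and 1 of the 2 probes was called in each.

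In the opposite direction, Slc23a2, which takes up ascorbate, read 8.72 and 8.81 in WT unstimulated, 8.65 and 8.63 in WT M1, 7.84 and 8.01 in iNOS-/- unstimulated and 9.66 and 9.48 in iNOS-/- M1. It rose 3.12-fold in iNOS-/- (1.64 ± 0.11 SE, adjusted p = 0.000218) with a WT difference of -0.12 ± 0.11 (SE), adjusted p = 0.421. Slc33a1, which brings acetyl-CoA into the endoplasmic reticulum, read 2.42 and 1.87 in WT unstimulated, 2.19 and 3.12 in WT M1, 2.58 and 1.93 in iNOS-/- unstimulated and 4.92 and 4.71 in iNOS-/- M1. Slc33a1 was higher in iNOS-/- M1 than in WT M1 by 2.15 ± 0.40 (SE), adjusted p = 0.00842.

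Nucleotide sugar carriers, which load the Golgi with donors for glycosylation, were 21 probes for 15 symbols. Of these probes, 12 were called lower and 1 higher in iNOS-/- M1 than in WT M1, beside 25.3% and 22.9% of all probes. Repeat probes of a gene are counted singly, and all 3 Slc35c2, both Slc35c1 and 2 of 3 Slc35b3 probes are among the lower calls. In the iNOS-/- response, limma called 10 lower and 0 higher, with 0 higher at an unadjusted p under 0.05, beside 25.1% lower and 25.2% higher of all probes. In WT it called 2 lower and 2 higher, beside 14.3% and 20.8% of all probes. The class was not tested as a group, and it also counts Slc35 members of other or unknown substrate, such as Slc35b3 and Slc35e4. Slc35c1, the GDP-fucose carrier, read 10.50 and 10.61 in WT unstimulated, 10.35 and 10.65 in WT M1, 10.64 and 10.67 in iNOS-/- unstimulated and 9.44 and 9.58 in iNOS-/- M1 on its brighter probe, 1.99-fold lower in iNOS-/- M1 (-0.99 ± 0.13 SE, adjusted p = 0.00263), and the second probe gave -1.78 ± 0.09 (SE), adjusted p = 0.000225. Slc35c2, a relative also linked to fucosylation, read 7.26 and 7.29 in WT unstimulated, 8.21 and 8.09 in WT M1, 8.40 and 8.50 in iNOS-/- unstimulated and 6.51 and 6.19 in iNOS-/- M1. It rose in WT by 0.87 and fell in iNOS-/- by 2.10 (adjusted p = 0.00628 and 0.000186), and all 3 Slc35c2 probes fell in iNOS-/- and had a called difference between responses.

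Slc35e4, a family member of unknown substrate, was detected in every group but iNOS-/- M1. It read 4.14 and 4.61 in WT unstimulated, 4.27 and 4.35 in WT M1, 2.41 and 3.45 in iNOS-/- unstimulated and the floor on both iNOS-/- M1 arrays, at least 2.66-fold below WT M1 (adjusted p = 0.000630). Also lower in iNOS-/- M1 than in WT M1, by less, were Slc35b4 (-0.62 ± 0.11 SE, adjusted p = 0.00842) and Slc35e3 (-0.67 ± 0.08 SE, adjusted p = 0.00199). The same held for 2 of 3 probes of Slc35b3, a carrier of the sulphate donor PAPS. The exception was Slc35b1, 1.49-fold higher in iNOS-/- M1 (0.57 ± 0.09 SE, adjusted p = 0.00546), which was not called with neqc or quantile normalization (adjusted p = 0.125 and 0.158). The CMP-sialic acid carrier Slc35a1 and the UDP-galactose carrier Slc35a2 were not called between the M1 groups.

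Both nucleoside carriers were lower in iNOS-/- M1. Slc29a3, which exports nucleosides from lysosomes, read 9.67 and 9.52 in WT unstimulated, 9.11 and 9.03 in WT M1, 9.15 and 9.17 in iNOS-/- unstimulated and 8.03 and 8.21 in iNOS-/- M1 and differed by -0.95 ± 0.11 (SE), adjusted p = 0.00153. Slc29a1, or ENT1 of the plasma membrane, read 7.44 and 7.55 in WT M1 and 5.56 and 6.08 in iNOS-/- M1 and differed by -1.67 ± 0.20 (SE), adjusted p = 0.00177. The lysosomal sialic acid exporter Slc17a5 read 6.91 and 7.17 in WT unstimulated, 6.40 and 6.26 in WT M1, 5.88 and 5.91 in iNOS-/- unstimulated and 4.23 and 4.17 in iNOS-/- M1, with no overlap between groups. It was 4.37-fold lower in iNOS-/- M1 than in WT M1 (-2.13 ± 0.12 SE, adjusted p = 0.000250). Slc17a8, a vesicular glutamate carrier, was undetected in WT unstimulated (0.00 and 1.37), and read 4.09 and 3.27 in WT M1, 4.22 and 4.63 in iNOS-/- unstimulated and 3.59 and 3.05 in iNOS-/- M1. It was at least 3.81-fold higher in unstimulated iNOS-/- than WT cells (adjusted p = 0.00587) and at least 2.28-fold higher in WT M1 (adjusted p = 0.0112, and 0.0564 without WT M1 replicate 1).

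Organic ion carriers of the Slc22 family included both directions. Slc22a5, the carnitine carrier OCTN2, was higher in iNOS-/- M1 than in WT M1 on 2 of its 3 probes, by 1.27 ± 0.13 (SE), adjusted p = 0.0011 on the brightest, with 6.76 and 6.56 in WT M1 and 7.92 and 7.94 in iNOS-/- M1. Slc22a21, a close relative that shares carnitine as a substrate, read 1.70 and 2.58 in WT unstimulated, 3.28 and 2.19 in WT M1, 1.04 and 3.07 in iNOS-/- unstimulated and 5.57 and 5.26 in iNOS-/- M1. It rose in iNOS-/- by 3.36 (SE 0.77, adjusted p = 0.0159), with adjusted p of 0.0541 to 0.0694 when either iNOS-/- M1 array was left out. Against WT M1, Slc22a21 differed by 2.68 ± 0.77 (SE), adjusted p = 0.0358, a call lost without any 1 of the WT or iNOS-/- M1 arrays (adjusted p 0.0548 to 0.149) and with the replicate number as a block (adjusted p = 0.0569). Slc22a4, the ergothioneine carrier OCTN1, read 6.64 and 6.12 in WT unstimulated, 4.79 and 4.26 in WT M1, 5.58 and 5.52 in iNOS-/- unstimulated and 4.36 and 4.25 in iNOS-/- M1, and fell 3.61-fold in WT (-1.85 ± 0.24 SE, adjusted p = 0.00416) and by 1.25 on the log2 scale in iNOS-/- (adjusted p = 0.00918). Slc10a3, of the bile salt carrier family, read 8.55 and 8.56 in WT unstimulated, 8.38 and 8.28 in WT M1, 8.0 and 7.95 in iNOS-/- unstimulated and 7.42 and 7.50 in iNOS-/- M1, lowest in iNOS-/- M1 (-0.87 ± 0.08 SE, adjusted p = 0.000954 against WT M1).

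Fatty acid carriers gave 4 probes. Slc27a3, an acyl-CoA synthetase of the fatty acid transport family, read 3.75 and 2.94 in WT unstimulated, 7.0 and 6.87 in WT M1, 7.20 and 7.09 in iNOS-/- unstimulated and 7.80 and 7.68 in iNOS-/- M1. Only WT unstimulated was low, so that Slc27a3 was 12-fold higher in WT M1 (3.59 ± 0.27 SE, adjusted p = 0.000675) and 13.9-fold higher in unstimulated iNOS-/- (3.80 ± 0.27 SE, adjusted p = 0.000622). Slc27a1, or FATP1, read 7.48 and 7.32 in WT unstimulated, 6.73 and 6.53 in WT M1, 6.64 and 6.44 in iNOS-/- unstimulated and 3.44 and 4.54 in iNOS-/- M1, and fell 5.84-fold in iNOS-/- (-2.55 ± 0.36 SE, adjusted p = 0.00288). Slc27a6 was high in WT unstimulated alone, at 6.42 and 6.26, beside 3.64 and 3.47 in WT M1, 2.97 and 2.61 in iNOS-/- unstimulated and 1.57 and 3.68 in iNOS-/- M1. Slc27a6 fell in WT by 2.79 (SE 0.67, adjusted p = 0.0272, and 0.0531 to 0.107 without any 1 of the 6 WT and iNOS-/- unstimulated arrays) and was 3.55 lower on the log2 scale in unstimulated iNOS-/- (adjusted p = 0.0138, and 0.0574 to 0.0709 without any 1 of these 4 arrays).

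Carboxylate carriers were dim. Slc16a6, the brightest of them, read 5.98 and 6.14 in WT unstimulated, 6.0 and 6.11 in WT M1, 6.23 and 6.63 in iNOS-/- unstimulated and 6.23 and 5.93 in iNOS-/- M1 and was called in no comparison on that probe. Slc13a2, a sodium-coupled carrier of succinate and citrate, read 3.88 and 3.47 in WT unstimulated, 3.60 and 4.02 in WT M1, 3.84 and 4.19 in iNOS-/- unstimulated and the floor on both iNOS-/- M1 arrays, at least 2.17-fold lower than before stimulation and 1.88-fold lower than in WT M1 (adjusted p = 0.000132 and 0.000273). Slc16a13, of the monocarboxylate family, was at the floor in WT unstimulated, read 2.00 and 3.12 in WT M1, 3.38 and 2.87 in iNOS-/- unstimulated and 0.00 and 1.70 in iNOS-/- M1, and was detected on 3 arrays in all. Slc16a13 met the detection limit through the iNOS-/- unstimulated group, in which it was high, so no test is given for it. The 4 phosphate and sulphate probes were not called by limma in any comparison, and 2 of their 20 tests had an unadjusted p under 0.05. Slc26a6, the brightest, read 5.59 and 5.48 in WT unstimulated, 5.54 and 4.98 in WT M1, 5.0 and 5.10 in iNOS-/- unstimulated and 2.94 and 4.48 in iNOS-/- M1, and was called lower in iNOS-/- M1 with neqc (adjusted p = 0.0112 against WT M1).

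Members that are not transporters, but share the symbol, included the scaffold Slc9a3r1 (NHERF1), which tethers membrane proteins to the cytoskeleton through PDZ domains. Slc9a3r1 read 9.95 and 9.99 in WT unstimulated, 9.57 and 9.70 in WT M1, 9.36 and 9.40 in iNOS-/- unstimulated and 10.38 and 10.38 in iNOS-/- M1, falling in WT by 0.33 and rising in iNOS-/- by 1.0 (adjusted p = 0.0327 and 0.000485), the latter 0.54 with neqc and 0.55 with quantile normalization. Its relative Slc9a3r2 (NHERF2) read 6.42 and 6.28 in WT unstimulated, 5.52 and 5.69 in WT M1, 5.29 and 5.30 in iNOS-/- unstimulated and 0.00 and 1.40, undetected, in iNOS-/- M1. Slc9a3r2 was at least 6.51-fold lower in iNOS-/- M1 than in WT M1 (adjusted p = 0.000778) and at least 5.27-fold lower than before stimulation (adjusted p = 0.000728).

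**Figure D5:**
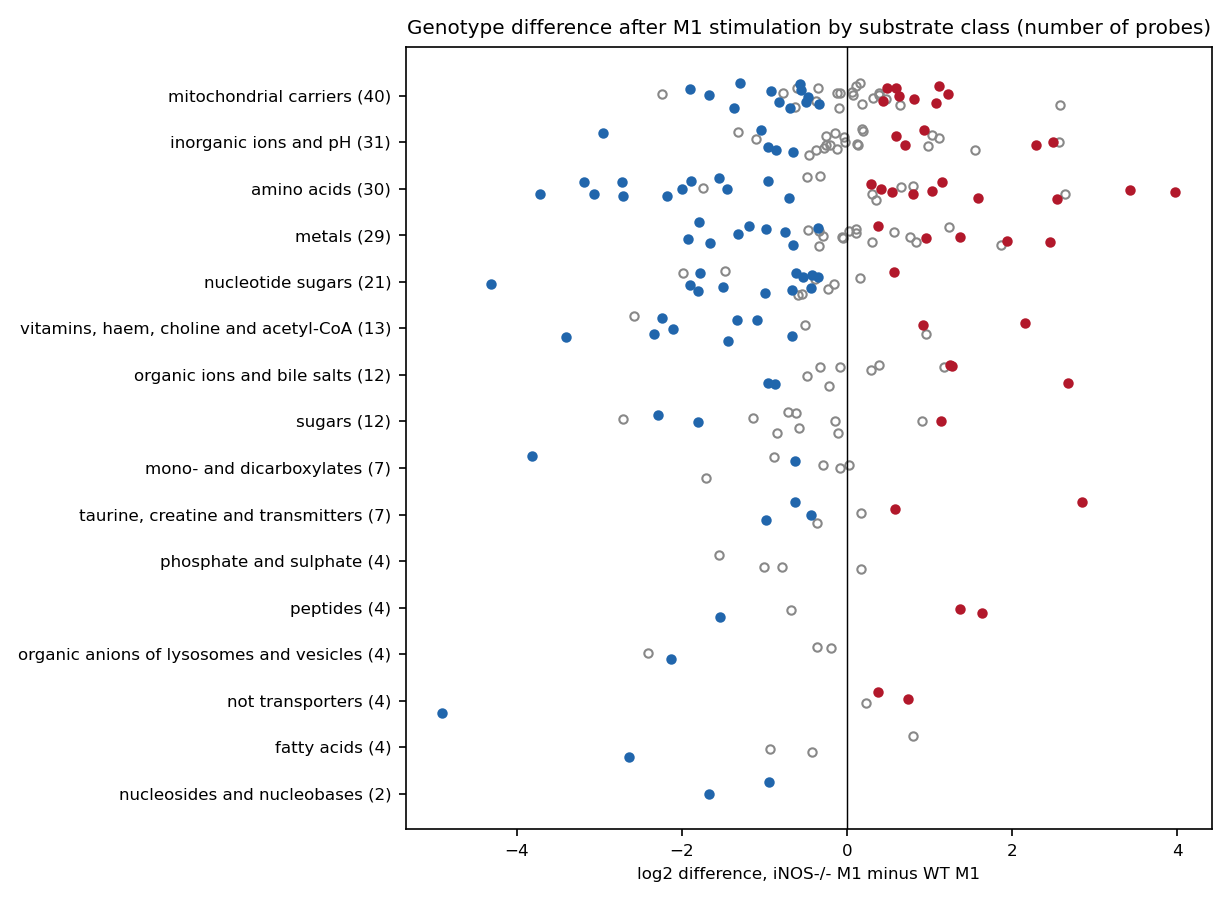
Log2 difference between iNOS-/- M1 and WT M1 for each solute carrier probe by substrate class, with the number of probes in parentheses. Red and blue points were called higher and lower in iNOS-/- and open points were not called. Nucleotide sugar carriers, with 21 probes for 15 symbols, show 1 red and 12 blue points.

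The responses of the genotypes could be set against each other, since they share no array. Of the 224 probes, 10 were called higher in both genotypes and 15 lower in both, which are 4.46% and 6.70% of the carriers beside 9.68% and 5.82% of all probes. Another 72 were called in iNOS-/- alone (32.1%, beside 26.9% of all probes), 18 in WT alone (8.04%, beside 11.7%) and 95 in neither (42.4%, beside 38%). Opposite calls were made for 14 probes (6.25%, beside 7.90% of all probes). The difference between the responses was called for each, which follows almost of itself from 2 opposite calls and adds no support. Higher in WT and lower in iNOS-/- were Slc6a9, Slc35c2, Slc35c1, Slc6a13, Slc7a7, Slc16a13, Slc25a11, Slc25a35 and 2 of the 3 Slc25a38 probes. In the WT response only 1 of 3 probes was called for Slc35c2 and Slc25a11, and 1 of 2 for Slc35c1 and Slc7a7. Slc16a13 met the detection limit through a group in which it was high, so its calls support nothing. The reverse was seen for Slc30a1, Slc32a1, Slc6a6 and the scaffold Slc9a3r1. Group means of the carriers lay closest for WT M1 and iNOS-/- unstimulated, with a median absolute difference of 0.39, and farthest for WT unstimulated and iNOS-/- M1, with 0.93. The same pairs were closest and farthest over all probes tested, with 0.33 and 0.78, so this order is not particular to the carriers.

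Probes of 1 gene did not always move alike. Of 43 symbols with more than 1 probe, 12 had all probes called between the M1 groups, 18 some and 13 none, and Slc1a2 alone had probes called in opposite directions there. In the iNOS-/- response Slc1a2 and Slc38a2 had such opposite calls.

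RefSeq promoter windows (GRCm38.p6) were found for 121 of 153 member genes with a gene identifier. The letters CACGTG, an E-box bound among others by lysosomal and growth regulators, stood in 13.5% of 170 member windows and in 7.15% of 32851 windows of all genes, searched on both strands. TGACNNNGC stood in 19.4% and 12.4%, and the interferon-stimulated response core in 1.76% of member windows beside 3.44%. The NF-kB core stood in 1.76% beside 1.63%, TGACGTCA in 1.18% beside 1.79% and the amino acid response letters TGATGNAAN in 2.35% beside 3.95%. The GAS letters TTCNNNGAA stood in 4.12% beside 8.3%. The metal response forms TGCACNC and TGCGCNC, chosen after the values were seen, stood in 16.5% beside 12.6% and 25.3% beside 15.4%. Member windows with CACGTG included those of Slc36a1, Slc29a1, Slc33a1, Slc30a5 and Slc20a1. These are counts of letters, given without a test.

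Carriers whose symbols do not begin with Slc were described from a list of 48, of which 33 were on the array and 22 tested. Slco3a1, an organic anion carrier, read 4.69 and 4.70 in WT unstimulated, 8.11 and 8.06 in WT M1, 7.15 and 7.13 in iNOS-/- unstimulated and 10.30 and 10.53 in iNOS-/- M1. Slco2b1, of the same family, read 7.45 on both WT M1 arrays and 1.20 and 0.53 in iNOS-/- M1. Xpr1, which exports phosphate, and Ctns, the lysosomal cystine exporter, were both called lower in iNOS-/- M1 than in WT M1, by 1.79 and 1.34 on the log2 scale.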

How the data were processed

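Bead-array intensities of 8 arrays were analysed, in 4 groups of 2 taken from the sample labels. The authors deposited average bead signals per probe as intensity values, which were not normalized per the file headers, and beside each intensity a deposited detection p-value, which compares the probe with negative control beads. The headers also state no background subtraction, yet 25.2% to 27.2% of the intensities on each array were below 0. Such values stand at the floor here. The submitters' processing notes name GenomeStudio and limma 3.14.4, and the study's methods describe background subtraction and rank-invariant normalization. The number of arrays limits the precision.

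From these values, rank-invariant probes gave each array's scale factor against the average of the arrays, by robust regression without intercept in MASS 7.3.60.0.1, and log2 was taken after values under 1 were set to 1. A one-way model over all 4 groups was fitted with limma 3.58.1 in R 4.3.3 to the 13868 probes that 2 or more arrays detected (p-value under 0.05), with 5 contrasts and Benjamini-Hochberg adjustment within each contrast over all probes tested. The call limit was an adjusted p of 0.05. The fit was tested on simulated data. For a probe undetected on both arrays of a group, the bound used the higher of its own value and the lowest detected value on each array.

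The members, substrate classes and lists were chosen with earlier results of these data known. Given array by array were, in each contrast, the 5 called genes with the largest rise and the 5 with the largest fall (brightest probe, both arrays of the higher group detected, no overlap between the groups compared) and the brightest probe of each class. Further members described by class were chosen after their values were seen, as were the metal response motifs. Alternatives were neqc, a floor of 16, quantile normalization, all probes without the filter, probes detected on all 8 arrays, 1 probe per gene, a 2-fold minimum, the replicate number as a block, only the 4 arrays compared, and leaving out each array.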

Additional observations from a re-analysis of the deposited data

Results flagged for a closer look

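The 21 results listed here were picked because limma called the difference between the responses of the genotypes to stimulation. That all of them pass this test is therefore no finding. Each is given as the iNOS-/- response minus the WT response on the log2 scale. The iNOS-/- response was the higher for Slc30a1 (3.05), Slc45a3 (2.63), Slc24a5 (2.49), Slc32a1 (2.17), Slc15a3 (2.15), Slc9a3r1 (1.33) and Slc6a6 (1.10). It was the lower for Slc25a11 (-0.84), the Slc25a38 probe starting at 1503 (-0.88), Slc7a7 (-1.16), Slc25a35 (-1.23), Slc6a13 (-1.61), Slc35c1 (-1.76), the Slc25a38 probe starting at 1085 (-1.91), Slc6a9 (-2.70), Slc35c2 (-2.98), Slc1a4 (-3.35), Slc9a3r2 (-3.85), Slc17a8 (-4.09), Slc13a2 (-4.16) and Slc16a13 (-4.84). The values for Slc45a3, Slc24a5, Slc1a4, Slc9a3r2, Slc17a8, Slc13a2 and Slc16a13 include groups with no detected array and depend on the floor. Slc24a5 and Slc16a13 met the detection limit through a group in which they were high, so their tests support nothing. The Slc24a5 call was also lost with neqc, without the detection filter, with the replicate block and when any WT unstimulated, iNOS-/- unstimulated or iNOS-/- M1 array was left out, and that of Slc45a3 with neqc. The Slc6a6 difference fell to 0.45 with neqc and quantile normalization, where its iNOS-/- response was negative and not called.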

How the results depend on the processing

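The 57 calls of the WT response became 89 with neqc, 24 with a 2-fold minimum and 30 to 64 when single arrays were left out. A 2-fold minimum lowered the 111 calls of the iNOS-/- response to 66, the 114 between the M1 groups to 63 and the 63 between the unstimulated groups to 30, and the last count was 37 to 70 when single arrays were left out. The causes were not tested, apart from the fewer arrays and the added fold limit. All other counts of called carriers stayed within 1.5 times, in every setting run. Leaving out an array left its group with 1, which is then assumed to vary like the other groups. Of 50 results for named genes none turned direction in a setting run, and 19 kept call and sign in every one. A floor of 16 ended 24 calls, no detection filter 8, neqc 2, quantile normalization none and leaving out 1 array 4 to 7. Replicate numbers were taken as names, since deviations of same-numbered arrays correlated at -0.04 to 0.03. With the replicate number as a block, the 5 comparisons had 46, 107, 105, 58 and 77 calls, and 3 named calls were lost. Signal near background limits the dim probes, whose folds are bounds.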
